A study of Rattus norvegicus with 24 samples.

Results

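The lung miRNAs rno-miR-3585-5p, rno-miR-547-3p, rno-miR-201-5p and rno-miR-211-3p were followed in rats across inhaled hexanal doses on miRNA microarrays. They were chosen by the dose slope of their levels on these same arrays, so every value against dose given here is a description and carries no test. They are 4 of the 719 rat miRNAs on the array and 4 of the 283 that were detected often enough to be fitted. Of the 4, rno-miR-3585-5p, rno-miR-547-3p and rno-miR-201-5p come from neighbouring genes on the X chromosome, and their levels moved together from rat to rat. With dose means subtracted, rno-miR-201-5p correlated at 0.918 with rno-miR-145-3p of chromosome 18 and at 0.853 with rno-miR-3585-5p. With slide and sex also removed these values were 0.559 and 0.722. On 1 of the 3 array slides the X-linked miRNAs sloped upwards in both sexes, each time through 1 rat. Their mean levels, 3.80 to 4.00, lay near the floor of the scale, 3.50. For rno-miR-211-3p, from chromosome 1, the 4 highest levels belonged to 4 female rats on 1 array slide, and within each combination of slide and sex its slope lay between 0.0039 and 0.15.

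Total RNA (100 ng per array) came from the lungs of 24 Fischer-344 rats, an inbred strain, bought at 7 to 8 weeks of age. The control group breathed filtered clean air, and the other groups breathed hexanal, a volatile aldehyde, at 600, 1000 or 1500 ppm for 4 h per day on 5 days per week over 5 weeks, per the labels. Each group held 6 rats, 3 males and 3 females, with 1 array per rat. The sample titles give the dose in ppm and the protocol gives the same numbers in mg/m3, so ppm is used here only as the name of the dose. All groups shared the strain, the age and the tissue, and with bulk RNA fewer cells of a type and less RNA per cell cannot be told apart.

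A mature miRNA is a short RNA cut from an arm of a hairpin transcript, with 5p or 3p in its name for the arm. Loaded into an Argonaute protein, it pairs mainly through its seed, bases 2 to 8, with sites in messenger RNAs and lowers their translation or stability. miRNA genes that lie close together on the same strand are often transcribed as a cluster. miR-201, miR-547 and their neighbours belong to a fast-evolving rodent X-chromosome cluster best known from testis. miR-211 lies in an intron of Trpm1, a cation channel gene of pigment cells and retina, and its 5p arm is nearly the same as miR-204-5p.

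The mature sequences of the 4 miRNAs are shown because their seeds set which messages each could pair with. The seed is in capitals, and the letters are those of RefSeq on the GRCr8 assembly, 5′ to 3′. The other arm of the miR-547 hairpin follows, since it was also measured on all arrays.
rno-miR-3585-5p: uUCACAAGaaggugucuuucau
rno-miR-547-3p: aUUGGUACuucuuuaagugaga
rno-miR-201-5p: cACUCAGUaaggcauuguuc
rno-miR-211-3p: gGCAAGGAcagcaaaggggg
rno-miR-547-5p: uCACUUCAggauguaccaccca
The 4 seeds all differ, and none of the 4 occurs in another mature rat miRNA of the 693 in the sequence table. The 3 X-linked miRNAs held 36.4% (rno-miR-3585-5p), 31.8% (rno-miR-547-3p) and 45% (rno-miR-201-5p) G or C, and rno-miR-211-3p held 65%. The median over the 249 fitted miRNAs with a sequence was 47.8%.

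On GRCr8 the genes Mir3585, Mir201 and Mir547 lie in this order on the same strand of chromosome X, within 5454 bases. The gap from Mir3585 to Mir201 was 4957 bases and that from Mir201 to Mir547 was 218 bases, and these 3 were the only genes in the span. Mir509 was the only other miRNA gene within 200 kb. The hairpins show which arm was followed, with that arm in capitals.
Mir3585 hairpin: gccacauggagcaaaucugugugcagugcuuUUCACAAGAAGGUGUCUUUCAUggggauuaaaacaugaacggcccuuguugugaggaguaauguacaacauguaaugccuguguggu
Mir201 hairpin: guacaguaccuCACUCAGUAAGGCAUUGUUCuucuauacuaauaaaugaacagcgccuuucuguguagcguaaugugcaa
Mir547 hairpin: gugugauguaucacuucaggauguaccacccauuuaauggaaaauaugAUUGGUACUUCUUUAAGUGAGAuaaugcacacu
Mir211 hairpin: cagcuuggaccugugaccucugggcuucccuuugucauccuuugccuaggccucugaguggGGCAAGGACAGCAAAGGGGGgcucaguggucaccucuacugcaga
The followed arm is the 5p arm in Mir3585 and Mir201 and the 3p arm in Mir547 and Mir211.

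The level of a miRNA is its spot intensity on a log2 scale after each array was divided by its own 75th percentile. Values below 3.50 on this scale were set to 3.50, a floor taken from the dimmest spots that still counted as well above background. A miRNA was called well above background on an array where most spots of at least 1 of its probes were. The arrays lay on 3 slides that were not balanced over dose and sex. Slide 1 carried males alone, namely the 3 controls, the 3 rats at 600 ppm and 2 of those at 1000 ppm. Slide 3 carried females alone, with 2 rats from 600 ppm, 3 from 1000 ppm and 3 from 1500 ppm. On slide 2 were the control females, 600 ppm female 26, 1000 ppm male 13 and the males at 1500 ppm. The 75th percentile that scaled each array averaged 1068 on slide 1, 722 on slide 2 and 858 on slide 3. Across dose it was 932 ± 254 (SD, n = 6) in controls and 756 ± 58.8 (n = 6) at 1500 ppm (exact permutation p = 0.165, two-sided, adjusted p = 0.925 over 9 tests of array values). Markers of endothelium, epithelium and smooth muscle were well above background on all arrays. The striated muscle list ranged from 7.27 to 8.59 in controls and from 7.00 to 10.2 at 1500 ppm, and its part in the results was not tested.

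rno-miR-3585-5p, the 5p product of Mir3585, was 3.76 at its lowest, 4.30 at the median and 4.76 at its highest among the 6 controls. At 600 ppm the same values were 4.00, 4.21 and 4.56. At 1000 ppm they were 3.50, 3.82 and 4.07. At 1500 ppm they were 3.50, 3.62 and 3.91, and 4 of 6 rats lay below every control. Over both sexes the median was lower at the upper 2 doses, and the control and 1500 ppm groups still overlapped. The group means were 4.25 ± 0.45, 4.25 ± 0.23, 3.83 ± 0.22 and 3.66 ± 0.16 (SD, n = 6 each), and only the step from 600 to 1000 ppm, 0.42, was larger than the pooled SD of its groups, 0.23. The equal means at control and 600 ppm joined males at 4.65 and 4.33 with females at 3.85 and 4.16. The miRNA was well above background on 5, 5, 4 and 2 of 6 arrays with rising dose. The mean at 1500 ppm was 1.50-fold below control.

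rno-miR-547-3p, from the 3p arm of Mir547, had pooled means in the same order at a narrower range. Its lowest, median and highest control levels were 3.86, 4.13 and 4.52. They were 3.95, 4.12 and 4.44 at 600 ppm and 3.64, 3.85 and 4.04 at 1000 ppm. At 1500 ppm they were 3.56, 3.81 and 3.92. Again the 600 to 1000 ppm step, 0.30, was the only one beyond the pooled SD of 0.18, and 4 of 6 rats at 1500 ppm lay below every control. The means ran from 4.15 ± 0.27 and 4.14 ± 0.20 to 3.85 ± 0.15 and 3.78 ± 0.13 (SD, n = 6 each), 1.30-fold lower at 1500 ppm than in controls. Between control and 600 ppm its mean went from 4.39 to 4.21 in males and from 3.91 to 4.08 in females. It was well above background on 6, 5, 5 and 3 arrays.

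rno-miR-201-5p, whose gene lies between the other X-linked genes, was 3.51, 4.00 and 4.76 (lowest, median and highest) in controls and 3.62, 3.77 and 4.46 at 600 ppm. It was 3.50, 3.58 and 3.96 at 1000 ppm and 3.50, 3.50 and 3.73 at 1500 ppm. Most rats at 1500 ppm were at or next to the floor, and no array of that group was well above background, against 3, 5 and 4 of 6 arrays at control, 600 and 1000 ppm. Its 1500 ppm level is therefore only a bound, set by the lowest signal that passed for well above background on each array. The control mean lay 1.23-fold above this bound, but the 3 control females, at 3.51 to 3.58, were not well above background either. The 1.23-fold is therefore no lower limit for the controls as a group. The measured means of 4.07 ± 0.59 in controls and 3.54 ± 0.09 at 1500 ppm (SD, n = 6 each) differed 1.44-fold. No step between neighbouring doses exceeded the pooled SD.

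rno-miR-211-3p, the 3p product of Mir211, was well above background on all 24 arrays. Its lowest, median and highest levels were 5.09, 5.35 and 6.06 in controls and 4.72, 5.06 and 5.76 at 600 ppm. They were 4.59, 4.89 and 5.26 at 1000 ppm and 4.63, 4.87 and 5.12 at 1500 ppm. The means were lower at each higher dose, from 5.45 ± 0.37 through 5.13 ± 0.35 and 4.92 ± 0.24 to 4.86 ± 0.21 (SD, n = 6 each), and no neighbouring pair of groups differed by more than the pooled SD. At 1500 ppm 5 of 6 rats lay below every control, and the mean was 1.50-fold below control.

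**Figure D1:**
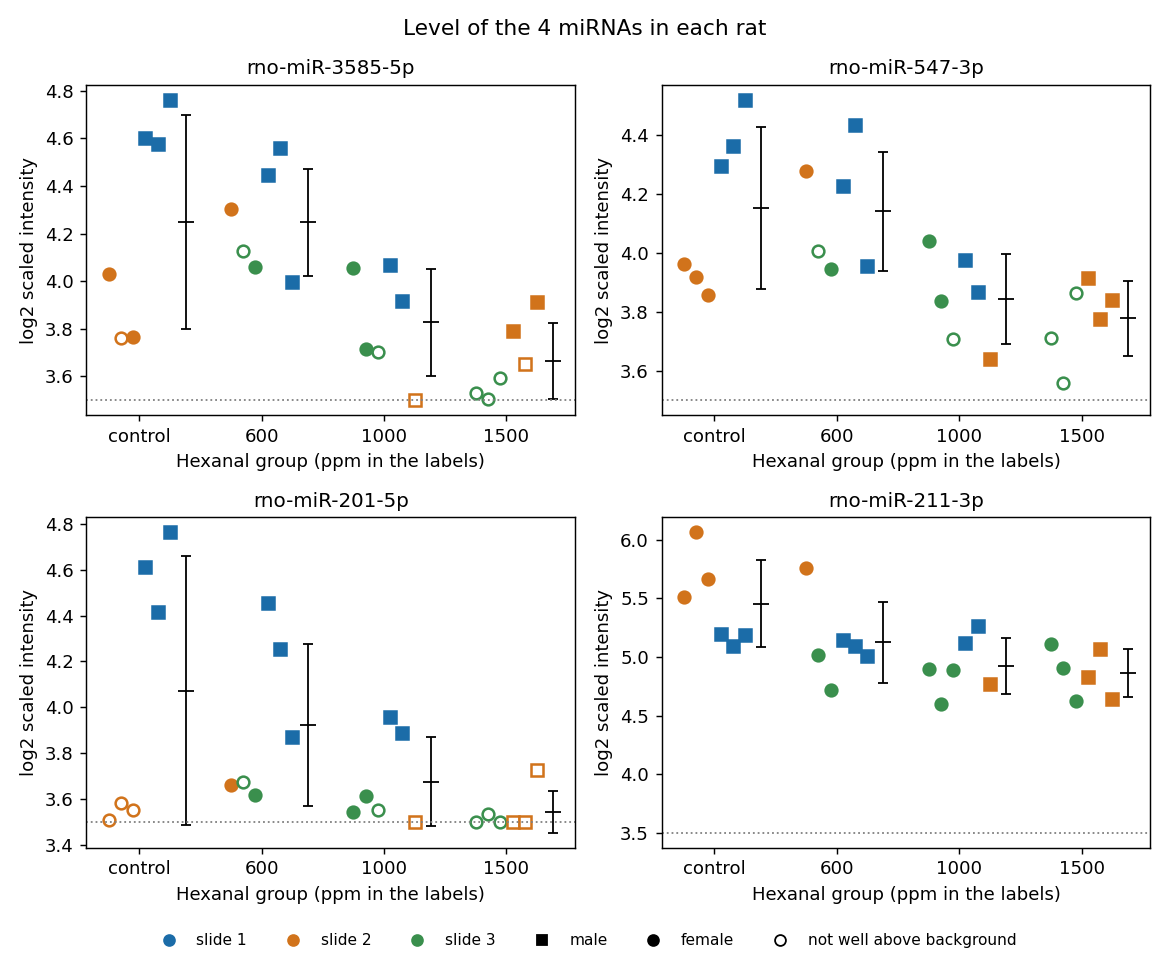
Level of each of the 4 miRNAs (log2 scaled intensity, vertical axis) in every rat by hexanal group, with slide by colour, sex by symbol and open symbols where the miRNA was not well above background. The black bar is the mean ± SD of 6 rats and the dotted line is the floor at 3.50. The highest level of each X-linked miRNA is that of a control male on slide 1, whereas for rno-miR-211-3p the 4 females on slide 2 stand highest.

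The dose slope, the change in log2 level per 1000 ppm in a line through all 24 arrays, is the value that chose these miRNAs. rno-miR-3585-5p had a slope of -0.43 ± 0.11 (SE) and rno-miR-211-3p sloped by -0.40 ± 0.10. The slope of rno-miR-201-5p was -0.37 ± 0.12, and that of rno-miR-547-3p was -0.28 ± 0.07. They ranked 1, 2, 3 and 9 from the most negative of 283. Of all 283 miRNAs, 140 (49.5%) sloped downwards, and nothing is read from the 4 against that share, since the choice fixed their sign. Outside the set, rno-miR-134-5p was at -0.35 (rank 4), rno-miR-483-5p at -0.32 (rank 5) and rno-miR-3068-3p at -0.31 (rank 6). They were followed by rno-miR-126a-5p at -0.29 (rank 7) and rno-miR-370-3p at -0.28 (rank 8). Each of these ranked ahead of rno-miR-547-3p, so the set is not simply the top of this ranking. rno-miR-32-5p had -0.27 (rank 10).

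Levels before scaling ran the same way, but they also carry the brightness of the whole array. The 75th percentile averaged 932 in controls and 756 at 1500 ppm, and its part in the unscaled values was not tested. The brightest probe of rno-miR-3585-5p had a median spot brightness of 57.5 ± 13.2 scanner units (SD, n = 6) in controls over a local background of 31.4 ± 4.0, and 45.6 ± 3.7 over 33.6 ± 2.6 at 1500 ppm. The gap between spot and background was thus 26.1 in controls and 12.0 at 1500 ppm. For rno-miR-547-3p the gap was 28.5 and 15.8, that of rno-miR-201-5p was 23.3 and 7.5, and that of rno-miR-211-3p was 50.5 and 28.3. Over all probes the local background was 31.8 ± 3.5 in controls and 34.3 ± 2.4 at 1500 ppm (exact permutation p = 0.206, adjusted p = 0.925). The part of the background in the slopes was not tested beyond the other corrections given in the closing section. Among the 66 fitted miRNAs with a mean level under 4.2, 41 sloped downwards with a median of -0.02, beside 140 of all 283 (49.5%). The 66 include the 3 X-linked miRNAs, which were chosen for their slope, and the part of a low level in the slopes was not tested.

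**Figure D2:**
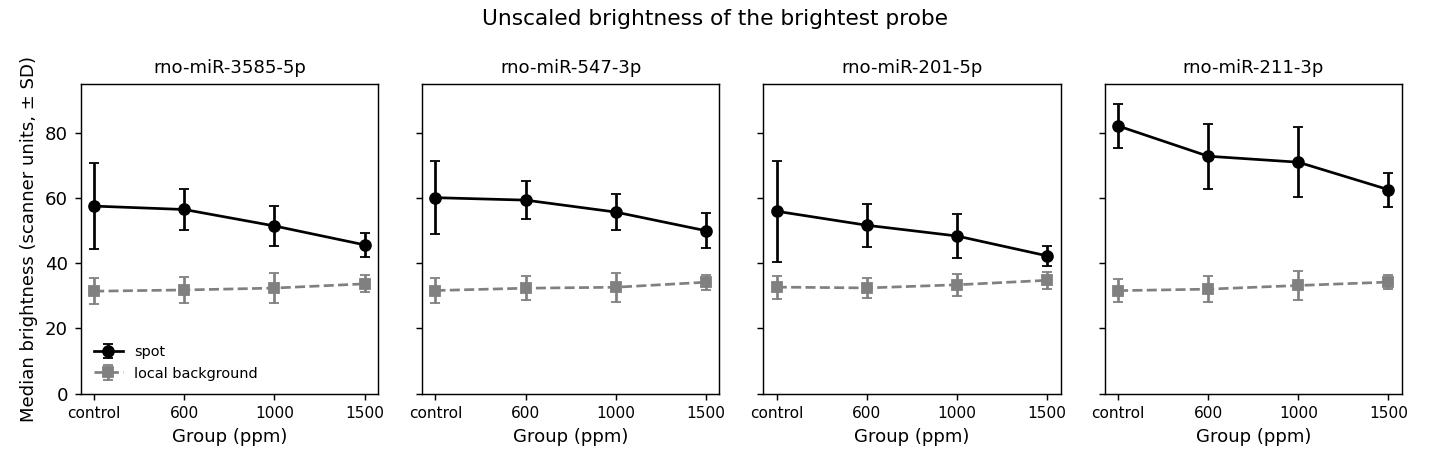
Median brightness of the spots of the brightest probe (circles) and of their local background (squares), in scanner units without scaling, as the mean ± SD of 6 rats per hexanal group. Spot brightness goes from 57.5 to 45.6 for rno-miR-3585-5p and from 82.0 to 62.5 for rno-miR-211-3p between control and 1500 ppm, while the background lies between 31.4 and 34.7.

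Each miRNA was read by a pair of probes with 10 spots per array. For rno-miR-211-3p both probes were well above background on 24 arrays, and they sloped by -0.42 and -0.39. For rno-miR-547-3p the probes were well above background on 10 and 19 arrays, with slopes of -0.23 and -0.33. The level of rno-miR-3585-5p rests on 1 probe, detected on 16 arrays, since the other was detected on 5. That of rno-miR-201-5p also rests on 1 probe, detected on 12 arrays, and its other probe was detected on 0.

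In the controls the sexes did not overlap for any of the 4 miRNAs. How many of all 283 miRNAs separate in this way was not counted, so nothing is read from it about the 4. Over all doses, 124 of 283 miRNAs (43.8%) passed for sex and 136 (48.1%) for slide. In control males rno-miR-3585-5p was 4.58, 4.60 and 4.76, and in control females it was 3.76, 3.76 and 4.03. In control males rno-miR-201-5p was 4.42, 4.61 and 4.76, whereas the control females were at 3.51, 3.55 and 3.58, and none of the 3 was well above background. rno-miR-547-3p was 4.30, 4.36 and 4.52 in control males and 3.86, 3.92 and 3.96 in control females. rno-miR-211-3p was the other way round, at 5.09, 5.19 and 5.20 in control males and 5.51, 5.67 and 6.06 in control females. Control males and control females lay on different slides, so sex and slide cannot be told apart within the controls.

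At 1500 ppm the sexes lay closer. rno-miR-3585-5p averaged 3.78 ± 0.13 in males and 3.54 ± 0.05 in females, and rno-miR-547-3p averaged 3.84 ± 0.07 and 3.71 ± 0.15 (SD, n = 3 each). rno-miR-201-5p averaged 3.58 ± 0.13 and 3.51 ± 0.02, and rno-miR-211-3p averaged 4.85 ± 0.21 and 4.88 ± 0.24. All 3 control males lay above all 3 males at 1500 ppm for each of the 4 miRNAs, as they did for 72 of the 283 (25.4%). All 3 control females lay above all 3 females at 1500 ppm for rno-miR-3585-5p and rno-miR-211-3p, against 39 of 283 (13.8%). These counts use the dose contrast that chose the 4 and are not evidence about them. Pooling the sexes, no miRNA of 283 (0%) had all 6 controls above all 6 rats at 1500 ppm.

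Over all doses, rno-miR-3585-5p was 0.30 ± 0.09 (SE) higher in males, at a mean level of 4.15 against 3.85, and limma's adjusted p was 0.0154. rno-miR-547-3p was 0.18 ± 0.07 higher in males (4.07 against 3.89, limma adjusted p = 0.0488), and the call was kept in 6 of the 24 fits that left out 1 array. rno-miR-211-3p was 5.03 in males and 5.15 in females, a difference of -0.11 ± 0.12 that did not pass (limma adjusted p = 0.438). rno-miR-201-5p, at 4.04 in males and 3.57 in females, differed by 0.47 ± 0.10, which is not tested because a fit with sex in it helped to choose this miRNA. Sex differences were common: 124 of 283 miRNAs (43.8%) passed, 46 (16.3%) higher in males and 78 (27.6%) lower.

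Sex and slide ran together, and the sex calls changed once slide entered the fit. With slide as a block, 10 of 283 miRNAs (3.53%) passed, and 48 had an unadjusted p under 0.05. The difference for rno-miR-3585-5p was then 0.28 ± 0.22 (limma adjusted p = 0.507) and for rno-miR-547-3p it was 0.09 ± 0.17 (limma adjusted p = 0.785). That for rno-miR-211-3p grew to -0.96 ± 0.17, lower in males, with a limma adjusted p of 0.00329. Within slide 2, which held 4 rats of each sex, it was -0.92 ± 0.13 (limma adjusted p = 0.0150), but the females there were controls and 1 rat at 600 ppm while the males had 1000 or 1500 ppm, so dose and sex cannot be told apart on that slide. With slide as a random block no miRNA passed (0 of 283), and 56 had an unadjusted p under 0.05.

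Detection gave the same order. rno-miR-547-3p was well above background in 12 of 12 males and 7 of 12 females (Fisher's exact p = 0.0373, two-sided, adjusted p = 0.112 over 3 miRNAs). rno-miR-3585-5p was detected in 10 males and 6 females and rno-miR-201-5p in 8 males and 4 females (Fisher's exact adjusted p = 0.220 for each). On slide 1 all 3 were detected on 8 of 8 arrays. On slide 2 rno-miR-3585-5p was detected on 5, rno-miR-547-3p on 8 and rno-miR-201-5p on 1 array, and on slide 3 each was detected on 3.

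The slope was more negative in males for the X-linked miRNAs and in females for rno-miR-211-3p. For rno-miR-201-5p it was -0.71 ± 0.10 (SE) in males and -0.03 ± 0.04 in females, a difference of -0.67 ± 0.11, which like its sex difference is a description with no test. The control females already lay at 3.51 to 3.58, next to the floor at 3.50. For rno-miR-3585-5p the slopes were -0.62 and -0.24 (difference -0.39 ± 0.17, limma adjusted p = 0.0750) and for rno-miR-547-3p -0.41 and -0.15 (-0.25 ± 0.12, limma adjusted p = 0.115). For rno-miR-211-3p they were -0.20 and -0.61 (0.42 ± 0.19, limma adjusted p = 0.0950). This last difference passed with the percentile taken over all probes (0.58 ± 0.18, limma adjusted p = 0.0125), with quantile normalization (0.47 ± 0.18, limma adjusted p = 0.0395) and without 1500 ppm female 36 (0.52 ± 0.19, limma adjusted p = 0.0387). Without 600 ppm female 26 that of rno-miR-3585-5p was -0.41 ± 0.16 (limma adjusted p = 0.0482). With a lower floor the difference of rno-miR-201-5p was -0.47 ± 0.36. The difference passed for 86 of 283 miRNAs (30.4%), with the more negative slope in males for 37 (13.1%) and in females for 49 (17.3%). With slide as a block 0 of 283 passed in limma, 18 had an unadjusted p under 0.05, and the difference for rno-miR-201-5p was -0.49 ± 0.18. As a random block slide left 0 of 283 past the limma threshold, and 13 had an unadjusted p under 0.05.

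**Figure D3:**
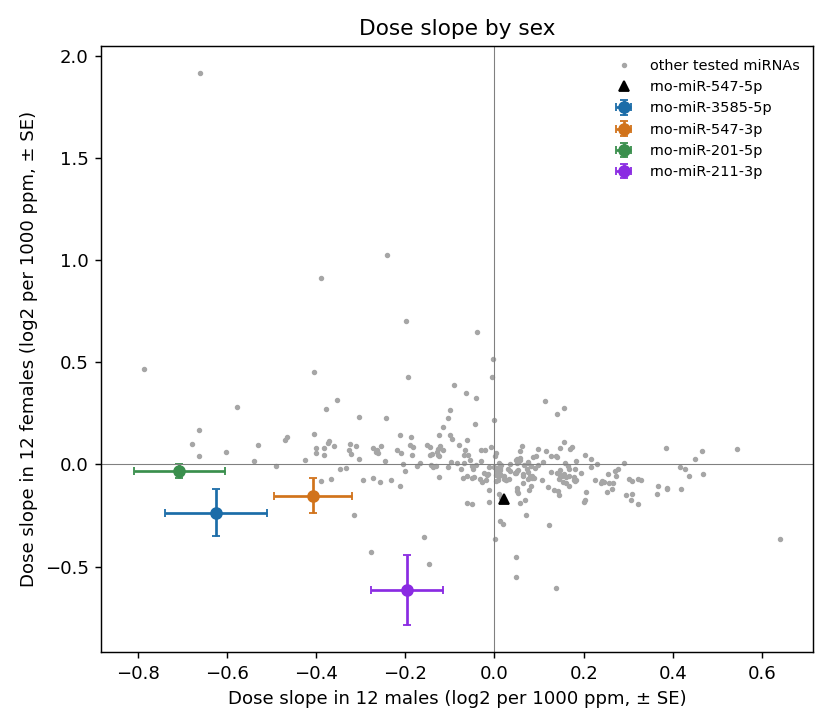
Dose slope (log2 per 1000 ppm) in 12 males on the horizontal axis and in 12 females on the vertical axis, for 283 miRNAs, with bars of ± 1 SE on the 4 miRNAs. The X-linked miRNAs lie to the left, with rno-miR-201-5p at -0.71 and -0.03, and other miRNAs have male slopes in the same range. rno-miR-211-3p lies low, at -0.20 and -0.61, and rno-miR-547-5p lies near the main cloud.

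In a fit with additive dose group and sex, slides differed for rno-miR-211-3p (moderated F = 20.7, limma adjusted p = 0.000105) and rno-miR-201-5p (F = 15.5, limma adjusted p = 0.000494). The call for rno-miR-201-5p was lost with a lower floor (F = 3.13, limma adjusted p = 0.120), in the total gene signal (F = 2.36, limma adjusted p = 0.215) and in the series table (F = 1.43, limma adjusted p = 0.306). They did not pass for rno-miR-3585-5p (F = 2.92, limma adjusted p = 0.138) or rno-miR-547-3p (F = 1.50, limma adjusted p = 0.318). Of all 283 miRNAs, 136 (48.1%) passed. Rats of the same dose and sex lay on different slides only through 600 ppm female 26 and 1000 ppm male 13, so slide and a dose effect that differs by sex cannot be told apart in this F. Among the 600 ppm females, rno-miR-201-5p was 3.66 on slide 2 and 3.67 and 3.62 on slide 3. Leaving out 600 ppm female 26 changed the F to 12.6 for rno-miR-211-3p and to 25.9 for rno-miR-201-5p. It also raised the F of rno-miR-3585-5p to 8.18 (limma adjusted p = 0.00896) and that of rno-miR-547-3p to 4.80 (limma adjusted p = 0.0480). Without 600 ppm male 8 the F of rno-miR-3585-5p was 4.75 (limma adjusted p = 0.0444).

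For rno-miR-211-3p no fall was measured within a combination of slide and sex. On slide 1 the 8 males lay between 5.01 and 5.26 whatever their dose, with a slope of 0.0039 ± 0.07 (SE). On slide 3 the 8 females lay between 4.59 and 5.12, with a slope of 0.04 ± 0.20. On slide 2 the control females and 600 ppm female 26 lay between 5.51 and 6.06, above all other rats, and the 4 males at 1000 or 1500 ppm lay between 4.64 and 5.07. Within the females of slide 2 the slope was 0.02 ± 0.55 and within its males 0.15 ± 0.50. With the 4 combinations of slide and sex as a block the slope was 0.03 ± 0.10, rank 212 of 283, whereas with slide alone it was -0.38 ± 0.11.

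The X-linked miRNAs sloped downwards on both single-sex slides. Among the slide 1 males, rno-miR-3585-5p sloped by -0.63 ± 0.17, rno-miR-547-3p by -0.44 ± 0.15 and rno-miR-201-5p by -0.67 ± 0.18, where 170 of 283 miRNAs (60.1%) sloped downwards. There rno-miR-201-5p was 4.42 to 4.76 in controls, 3.87 to 4.46 at 600 ppm and 3.89 to 3.96 at 1000 ppm. Among the slide 3 females, from 600 to 1500 ppm, the slopes were -0.60 ± 0.12, -0.30 ± 0.13 and -0.14 ± 0.03 in the same order, and 194 of 283 miRNAs (68.6%) sloped downwards. There rno-miR-3585-5p was 4.06 and 4.13 at 600 ppm, 3.70 to 4.05 at 1000 ppm and 3.50 to 3.59 at 1500 ppm.

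On slide 2 the direction turned, each time on 1 rat. Its females were the 3 controls and 600 ppm female 26, which stood higher, and rno-miR-3585-5p sloped by 0.75 ± 0.30, rno-miR-547-3p by 0.61 ± 0.10 and rno-miR-201-5p by 0.19 ± 0.07. In this group 144 of 283 miRNAs (50.9%) sloped downwards. Its males were 1000 ppm male 13, at the floor for rno-miR-3585-5p and rno-miR-201-5p, and the 3 rats at 1500 ppm, and the slopes were 0.57 ± 0.30, 0.41 ± 0.16 and 0.15 ± 0.30, where 78 of 283 (27.6%) sloped downwards. With slide by sex as a block the 3 slopes were -0.40 ± 0.13 (rank 1), -0.23 ± 0.10 (rank 4) and -0.34 ± 0.10 (rank 2), and 186 of 283 miRNAs (65.7%) were below 0. Controls and rats at 1500 ppm shared a slide only with the sexes opposed.

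**Figure D4:**
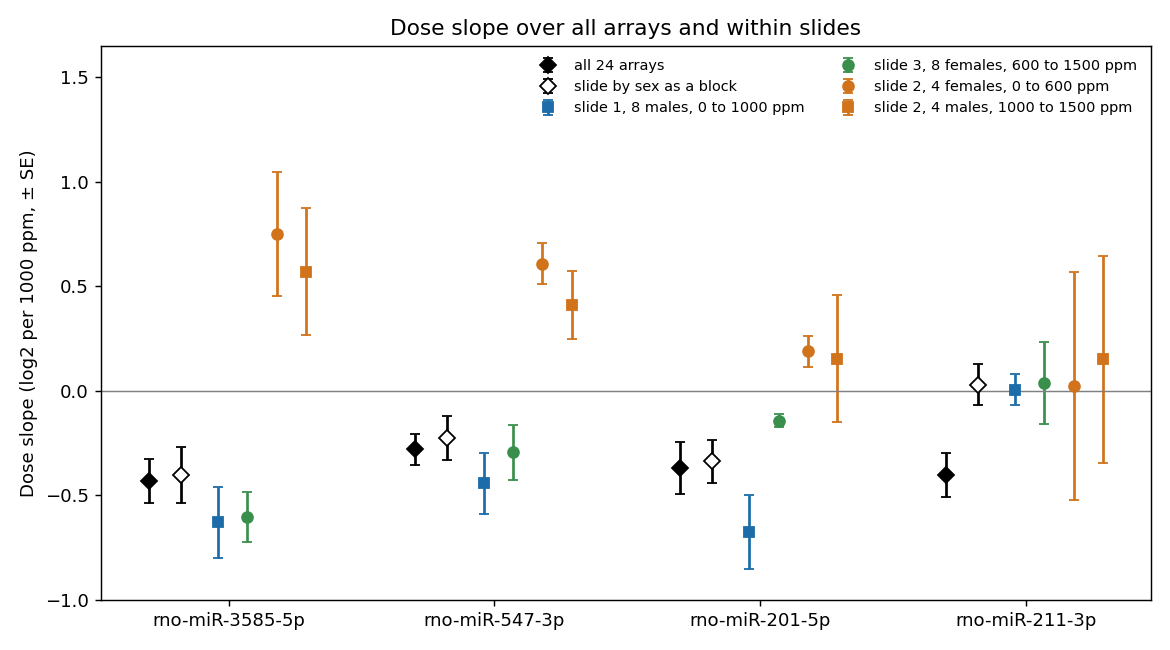
Dose slope (log2 per 1000 ppm, ± SE) of each miRNA over all 24 arrays, with slide by sex as a block, and within each combination of slide and sex. For rno-miR-211-3p the within-slide slopes lie between 0.0039 and 0.15, and for the X-linked miRNAs they are below 0 on slides 1 and 3 and above 0 on slide 2.

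From rat to rat, after the mean of each dose group was subtracted, the levels of rno-miR-3585-5p and rno-miR-547-3p correlated at r = 0.932 over 24 rats. With rno-miR-201-5p, rno-miR-3585-5p reached 0.853 and rno-miR-547-3p reached 0.752. These rats share slides, scaling and a floor. With slide and sex removed as well the values were 0.909, 0.722 and 0.655. rno-miR-211-3p had r = -0.31 with rno-miR-3585-5p, -0.20 with rno-miR-547-3p and -0.36 with rno-miR-201-5p, which became -0.06, -0.06 and 0.04 without slide and sex. The correlations are descriptions of these arrays.

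Outside the set, the miRNAs most like each member over the 24 rats were also listed, by the same r after subtraction of the dose means. For rno-miR-3585-5p they were rno-miR-17-1-3p (0.786) and rno-miR-190a-5p (0.760), and for rno-miR-547-3p rno-miR-190a-5p (0.689) and rno-miR-17-1-3p (0.675). For rno-miR-201-5p they were rno-miR-145-3p (0.918) and rno-miR-145-5p (0.907), known from smooth muscle. For rno-miR-211-3p they were rno-miR-188-5p (0.873) and rno-miR-328a-5p (0.867). With slide and sex removed, the r of rno-miR-201-5p was 0.559 with rno-miR-145-3p and 0.584 with rno-miR-145-5p, against 0.722 with rno-miR-3585-5p. On the same footing rno-miR-190a-5p had 0.697 with rno-miR-3585-5p and 0.629 with rno-miR-547-3p, close to the 0.722 and 0.655 that these had with rno-miR-201-5p.

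Over all 24 arrays the opposite arm of miR-547 sloped less than rno-miR-547-3p, which had been chosen for its slope. rno-miR-547-5p, cut from the same hairpin, was well above background on all 24 arrays at a mean level of 4.72, and its slope was -0.07 ± 0.10. In females the slopes of rno-miR-547-5p and rno-miR-547-3p were close, at -0.17 ± 0.09 and -0.15 ± 0.09 (SE). In males they were 0.02 ± 0.14 and -0.41 ± 0.09. In the fit without slide, rno-miR-547-5p was 0.31 ± 0.10 lower in males (limma adjusted p = 0.0169), the reverse of rno-miR-547-3p. The other arms of the remaining 3 hairpins were scarcely seen: rno-miR-3585-3p and rno-miR-201-3p were detected on 0 arrays, and rno-miR-211-5p on 2, both slide 1 males. Of the miR-204 and miR-211 family, rno-miR-204-5p, which shares its seed with rno-miR-211-5p, was detected on all 24 arrays. It sloped by -0.02 ± 0.19 and was 0.50 ± 0.19 lower in males (limma adjusted p = 0.0366), while rno-miR-204-3p was detected on 0 arrays.

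The wider X-linked cluster, taken here from a list of names and not by position, was mostly not detected in lung. Of the 32 listed miRNAs on the array, 7 were well above background on at least 1 array (21.9%), beside 326 of all 719 (45.3%). Of the 32, 4 were fitted: rno-miR-3585-5p, rno-miR-547-3p, rno-miR-201-5p and rno-miR-547-5p. All 4 sloped downwards, with a median of -0.33, but 3 of them were chosen for it. The other detected miRNAs were rno-miR-878 (3 arrays), rno-miR-743a-3p (2 arrays) and rno-miR-509-5p (1 array), and each was seen only on slide 1 males. The chromosome X miRNAs outside the list that were detected but not fitted were also seen only on slide 1 males, as was rno-miR-211-5p. How many of all 719 miRNAs show this was not counted. Slide 1 had the highest mean 75th percentile, 1068, and the part of slide in this detection was not tested. Of the 101 miRNAs of chromosome X on the array, 33 were fitted, of which 19 sloped downwards with a median of -0.01, beside 140 of all 283. By sex, in the fit without slide, 10 of the 33 passed as higher and 10 as lower in males, beside 46 (16.3%) and 78 (27.6%) of all 283. The 10 counted as higher include rno-miR-3585-5p, rno-miR-547-3p and rno-miR-201-5p, and the last carries no test of its own. With slide as a block, 10 of all 283 (3.53%) passed in either direction.

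**Figure D5:**
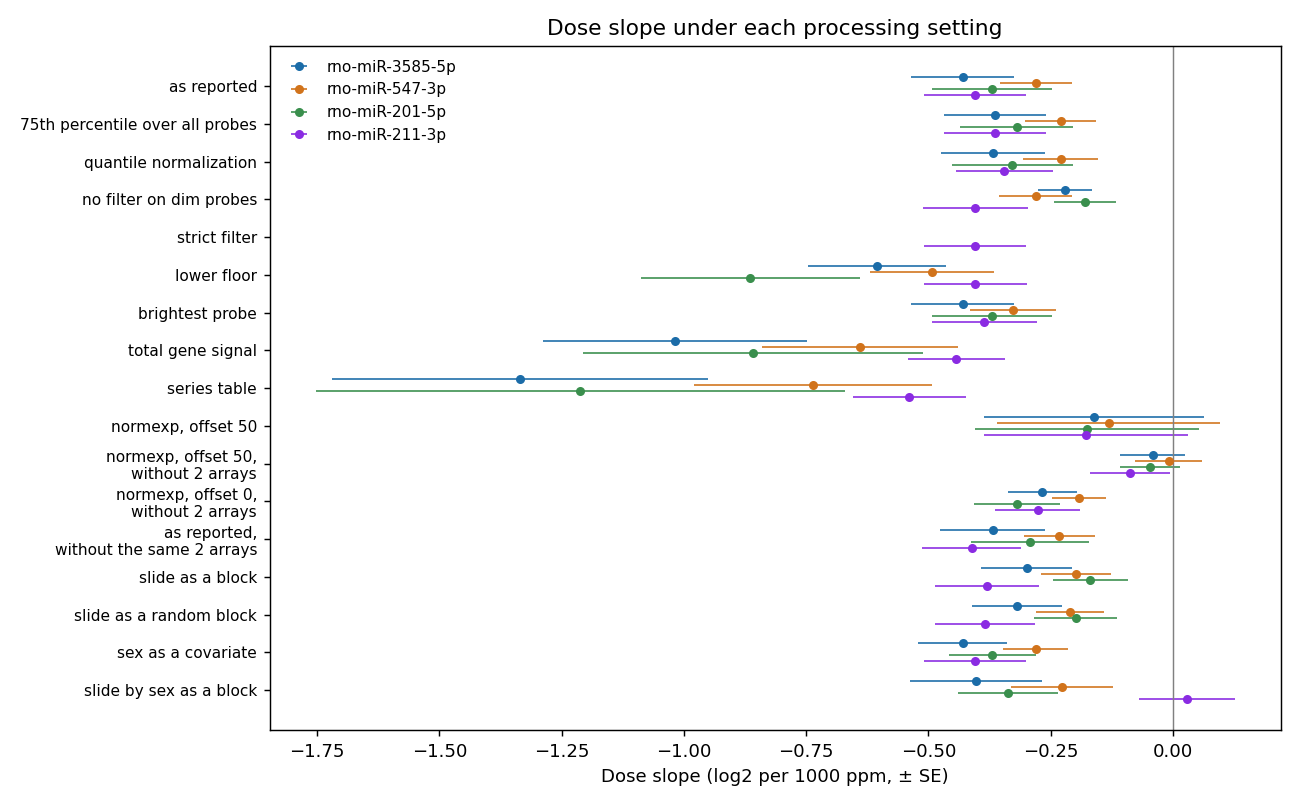
Dose slope (log2 per 1000 ppm, ± SE) of the 4 miRNAs under each way of processing the arrays, where the strict filter kept only rno-miR-211-3p. The slopes lie below 0 in all settings shown except rno-miR-211-3p with slide by sex as a block, at 0.03, and they come closest to 0 with the normexp background correction at an offset of 50.

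The size of the slope depended on how background and floor were treated. Over the 14 array-processing and block settings other than slide by sex, rno-miR-3585-5p sloped between -1.33 and -0.04, rno-miR-201-5p between -1.21 and -0.05 and rno-miR-547-3p between -0.74 and -0.01. For rno-miR-211-3p, which also passed the strict filter, the range over 15 settings was -0.54 to -0.09. The steepest values came from the deposited series table and the shallowest from a background model with an added offset of 50, in units before scaling. The mean unscaled gap between spot and background of the brightest probe was below 50 for each miRNA and dose group, except rno-miR-211-3p in controls (50.5).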

How the data were processed

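Agilent rat miRNA arrays, 1 colour (Cy3), were analysed from 24 lungs. Scanner files of Feature Extraction 11.5.1.1 were deposited for all arrays, and their spot intensity is corrected for background but not normalized between arrays. Per the file headers, each array held 14380 spots of 1730 probes for 719 miRNAs, with 5 to 20 spots per probe, and the arrays carry build rn4. In the deposited series table of intensities, the values are total gene signals, of which 58.7% were set to 1. A procedure for these values is not given in the sources used here.

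Here, control spots and outlier flags were left out. Processed intensities were scaled so that the 75th percentile of the 394 probes detected on all arrays became 865 on each. A floor of 11.3 (67.8% of all spots lay under it) and log2 followed, and spots of a probe were averaged. Probes detected (over 50% of spots well above background) on 6 or more of 24 arrays were kept and averaged by miRNA. This left 555 probes of 283 miRNAs. Near the floor a log2 difference understates the change in RNA. No spot was saturated (0 of the spots used).

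The members and gene lists were chosen with earlier results of these data known. Fits used limma 3.58.1 in R 4.3.3 (lmFit and eBayes, two-sided, Benjamini-Hochberg over 283 miRNAs, threshold 0.05) and the data.table package (version 1.17.8). Sex was fitted with dose group as a factor, slide with dose group and sex, and the slope difference with sex and linear dose. Dose slopes, and the sex and slope differences of rno-miR-201-5p, carry no p. Whole-array values had exact permutation tests, 9 in all, and detection with Fisher's exact test. Fits were run on simulated data with independent noise, without slide differences or a floor, so that run cannot speak to either of them here. Except where slide is a block, p-values treat the arrays as independent, so the spread they measure mixes rats and slides. The number of arrays limits the precision. Named miRNAs were the 4 members, the other arm of each hairpin, the miR-204 and miR-211 family, the 2 most correlated miRNAs per member, the neighbours by slope rank and the fitted or detected miRNAs of the X-linked list. The slide was read from the files. Alternatives were other scalings, filters, floors and background corrections, slide as a fixed or random block, the series table, sex as a covariate, a plain t-test (that of a related study's methods) and leaving out each array. Chosen after seeing the data were slide by sex as a block and the settings without the 2 arrays on which the normexp fit failed, control male 3 and 600 ppm female 26. A planned normexp variant by another estimator was not run. Sequences were matched by name to RefSeq (GRCr8) with Python 3.11.15 and pandas 2.3.3, and figures were drawn with matplotlib 3.10.9. Coordinates are not printed because the builds differ.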

Additional observations from a re-analysis of the deposited data

Results flagged for a closer look

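Of 16 groups of 6 rats (4 miRNAs at 4 doses), 1 held a rat far from the others. Chance flags about 1 in 20 groups of measured values, a rate that does not hold here, since 4 of the 6 rats were at the floor. It was rno-miR-201-5p in 1500 ppm male 18, at 3.73, whose gap to the nearest rat was 0.847 of the whole range of the group. No array of this group was well above background for rno-miR-201-5p, and the other rats lay at 3.50 to 3.53.

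The dose slope of rno-miR-201-5p differed between the sexes by -0.67 ± 0.11 (SE) per 1000 ppm in log2 level, with the more negative slope in males. The difference is a description and was not tested, since a fit with sex in it helped to choose this miRNA. It was -0.49 ± 0.18 with slide as a block, -0.47 ± 0.36 with a lower floor, -0.65 ± 0.52 in the total gene signal and -0.66 ± 0.87 in the series table. Over the fits that each left out 1 array it ranged from -0.73 to -0.62. Of the 12 males, 8 were on slide 1, and of the 12 females 8 were on slide 3, and the part of slide in the difference was not tested beyond that block.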

How the results depend on the processing

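Dose slopes (log2 per 1000 ppm) stayed below 0 for all 4 miRNAs under every scaling, filter, floor, background and slide block or random block tried. Exceptions came with slide by sex as a block, where rno-miR-211-3p was 0.028, and within slides. Within slides the values above 0 were, for rno-miR-211-3p, 0.0039 (slide 1 males), 0.023 and 0.15 (slide 2 females and males) and 0.037 (slide 3 females). On slide 2, in females and males, rno-miR-3585-5p had 0.75 and 0.57, rno-miR-547-3p had 0.61 and 0.41, and rno-miR-201-5p had 0.19 and 0.15.

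A lower floor moved rno-miR-547-3p to -0.49 and rno-miR-201-5p to -0.86. The total gene signal gave -1.02 (rno-miR-3585-5p), -0.64 (rno-miR-547-3p) and -0.86 (rno-miR-201-5p), and the series table -1.33, -0.74 and -1.21. The normexp correction with offset 50, without the 2 arrays on which its fit failed, took rno-miR-3585-5p to -0.042, rno-miR-211-3p to -0.088 and rno-miR-547-3p to -0.0087. With offset 0 and the same arrays left out the slopes were -0.27, -0.28 and -0.19. The added offset compresses low values by construction, and other causes were not tested. Leaving out each array in turn, rno-miR-3585-5p ranged from -0.50 to -0.38, rno-miR-211-3p from -0.44 to -0.32, rno-miR-547-3p from -0.32 to -0.24 and rno-miR-201-5p from -0.44 to -0.29.

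The count of miRNAs that differed by sex, 124 of 283, was 77 with no filter, 62 in the series table, 5 with normexp at offset 50, 26 with it and without the 2 arrays, 80 in the reported levels without the same 2 arrays, 10 with slide as a block, 0 with slide as a random block (limma, 56 at an unadjusted p under 0.05), 20 within slide 2 and 96 to 133 without each array. The count for slope differences, 86, was 0 with normexp at offset 50 and with slide as a block or random block (limma, 18 and 13 at an unadjusted p under 0.05) and 72 to 99 without each array. The count for slide, 136, was 221 with normexp at offset 50 and 127 to 144 without each array.

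The sex difference of rno-miR-211-3p was 0.00014 in the total gene signal and 0.093 in the series table. With normexp at offset 50 that of rno-miR-3585-5p, rno-miR-547-3p and rno-miR-201-5p was -0.23, -0.27 and -0.20, without the 2 arrays -0.029 and -0.066 for the first pair, and within slide 2 -0.25, -0.21 and -0.018. The slope difference of rno-miR-211-3p was -0.12 in the series table and -0.011 with slide as a block, against 0.58 with the percentile over all probes and 0.47 with quantile normalization, where it passed. For rno-miR-3585-5p, rno-miR-547-3p and rno-miR-201-5p it was 0.30, 0.29 and 0.23 with normexp at offset 50 and 0.29, 0.29 and 0.23 without the 2 arrays, and for rno-miR-3585-5p 0.036 at offset 0. The causes were not tested. The strict filter left no value for the X-linked miRNAs. No paired analysis was possible because each animal number occurs in 1 group.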
